A study of Arabidopsis thaliana with 15 samples.

Results

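The step from the end of cold stratification into the light was read in 6 of the 15 MethylC-seq libraries of an Arabidopsis thaliana germination series. These were the 3 libraries of seeds that had been in the light for 6 h (6 h SL) and the 3 libraries of seeds taken at the end of stratification (48 h S), and the libraries of each group were found from the sample labels. The 6 h SL seeds were wild-type Col-0 seeds that had dried for 14 days, spent 48 h at 4 °C in darkness and then 6 h in continuous light at 22 °C (100 µE per m2 per s). The 48 h S seeds had the same genotype, drying and cold, and were collected in darkness before the transfer. The labels call the tissue of both groups germinating seed. DNA came from whole seeds, so embryo, endosperm and seed coat were not separated, and methylation calls offer no marker gene with which to check the tissue. All seeds came from a single batch of plants according to the study's methods, which call the replicates biological, and p-values measure the spread between these libraries. The question was whether methylation rises by a small amount in the first 6 h of light, before the loss seen later in the series, and where in the genome such a rise lies. Light, the warming from 4 to 22 °C and the 6 h of further time came together in this step and cannot be told apart.

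Cytosine methylation in plants falls into 3 contexts. In CG sites the mark is copied at each replication by the maintenance methyltransferase MET1. In CHG sites (H is A, C or T) the chromomethylase CMT3 and histone methylation maintain each other. CHH sites have no cytosine on the opposite strand to copy from, and their methylation is laid down again either by DRM2, guided by short interfering RNAs through the RNA-directed DNA methylation pathway, or by CMT2 in the heterochromatin around the centromeres. Transposons carry all 3 contexts, whereas many expressed genes carry CG methylation alone. Developing and dry seeds are known for high CHH methylation of transposons, which falls as the seedling grows.

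The 6 h SL libraries held 166709931, 215140358 and 208434623 calls on chromosomes 1 to 5, against 382859061, 330391260 and 428839380 calls in the 48 h S libraries. This was 3.89 to 5.02 calls per cytosine at 6 h SL and 7.71 to 10.01 at 48 h S. Every 48 h S library was deeper than every 6 h SL library, so depth and time point cannot be told apart. The widest Wilson 95% confidence interval of a genome-wide level spanned 0.0385 percentage points and covers counting error only. The share of calls in the gene-poor parts of the chromosomes, defined further on, was at most 17.7% at 6 h SL and at most 16.01% at 48 h S.

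With all calls summed, the level of every context was higher on average at 6 h SL, but the libraries overlapped. The CG level was 28.5, 26.0 and 27.1% in the 6 h SL libraries, against 25.8, 26.5 and 26.0% in the 48 h S libraries. The lowest 6 h SL library lay below all but 1 of the 48 h S libraries, which differed among themselves by less than the 6 h SL libraries did. The difference in CG was 1.07 percentage points (27.2 ± 1.26% at 6 h SL and 26.1 ± 0.382% at 48 h S, SD, n = 3 each; exact 2-sided permutation p = 0.3). The CHG level was 12.4, 10.5 and 11.3% at 6 h SL, against 10.2, 10.9 and 10.5% at 48 h S, a difference of 0.835 points (exact permutation p = 0.3). The CHH level was 6.88, 5.75 and 6.31% at 6 h SL, against 5.48, 5.89 and 5.73% at 48 h S, a difference of 0.616 points (exact permutation p = 0.2). Replicate 1 of 6 h SL had the highest level in each context, and without it the differences were 0.423 points for CG, 0.340 for CHG and 0.331 for CHH. The smallest p that 3 against 3 libraries can give is 0.1, and the Benjamini-Hochberg adjusted p over the 3 contexts was 0.3 for each.

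With every 300-bp window weighted equally, the differences became much smaller. A window was used when all 15 libraries had 20 or more calls there, spread over 3 or more covered cytosines, which left 262730 CG, 298621 CHG and 384796 CHH windows. The mean window level in CG was 24.62, 24.52 and 24.56% at 6 h SL, against 24.50, 24.54 and 24.51% at 48 h S. The difference of 0.0480 points was within the SD of the 6 h SL libraries (0.0515 points, against 0.0204 points at 48 h S), and 1 of the 6 h SL libraries lay below 1 of the 48 h S libraries (exact permutation p = 0.2). In CHG the libraries lay at 9.61, 9.41 and 9.51% at 6 h SL, against 9.43, 9.51 and 9.50% at 48 h S, a difference of 0.0350 points (exact permutation p = 0.6), which was -0.0128 points without replicate 1 of 6 h SL. In CHH they lay at 6.07, 5.82 and 5.96% at 6 h SL, against 5.75, 5.90 and 5.89% at 48 h S, a difference of 0.106 points (exact permutation p = 0.4). The adjusted p was 0.6 in each context, so no genome-wide gain exceeded the spread between libraries in either weighting.

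**Figure D1:**
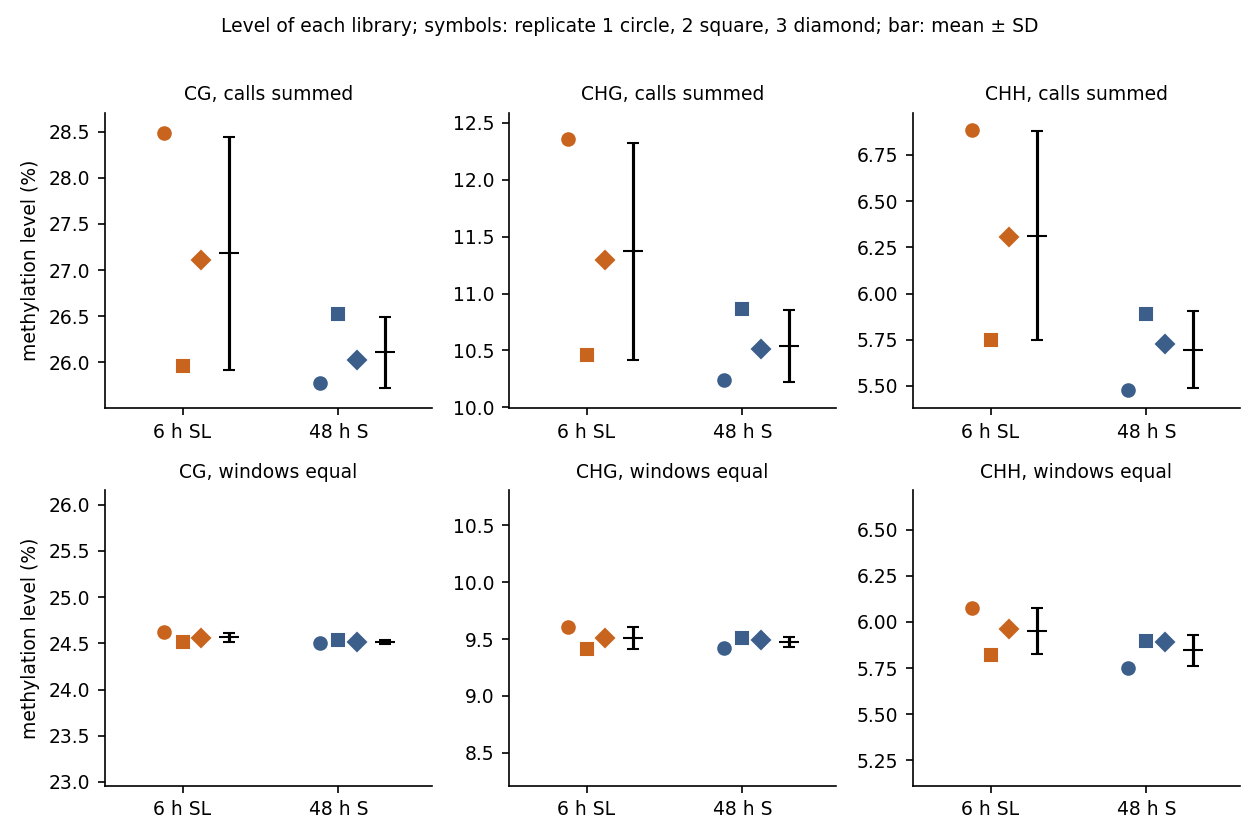
Methylation level (%) of each library of 6 h SL (orange) and 48 h S (blue), with calls summed (top) and with 300-bp windows weighted equally (bottom), on axes of equal height within a context. Symbols mark replicates 1 to 3 and the black bars give the mean ± SD of 3 libraries. The summed CG levels spread over 26.0 to 28.5% at 6 h SL and 25.8 to 26.5% at 48 h S, and the same libraries come within 24.5 to 24.6% when windows count equally.

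Over the windows that passed the filter, most of the summed difference came from where the calls lay and not from the level inside the windows. The summed change over the same windows was split into a part from the share of calls that each window received and a part from the change of level within windows. For CG, 0.699 of 0.767 points (91.2%) were due to the shares of calls and 0.0673 points to the levels. For CHG it was 0.514 of 0.548 points (93.9%), and for CHH 0.464 of 0.563 points (82.5%), with 0.0985 points from the levels in CHH. The 6 h SL libraries differed in this. Replicate 1 was above the summed 48 h S libraries by 2.04 points in CG, of which 1.91 came from the shares of calls, and replicate 3 by 0.922 points, of which 0.867 came from the shares. For replicate 2 the CG difference was -0.376 points, with -0.379 from the shares of calls. In CHH the part from the levels was 0.238 and 0.114 points in replicates 1 and 3, and -0.0306 points in replicate 2.

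**Figure D2:**
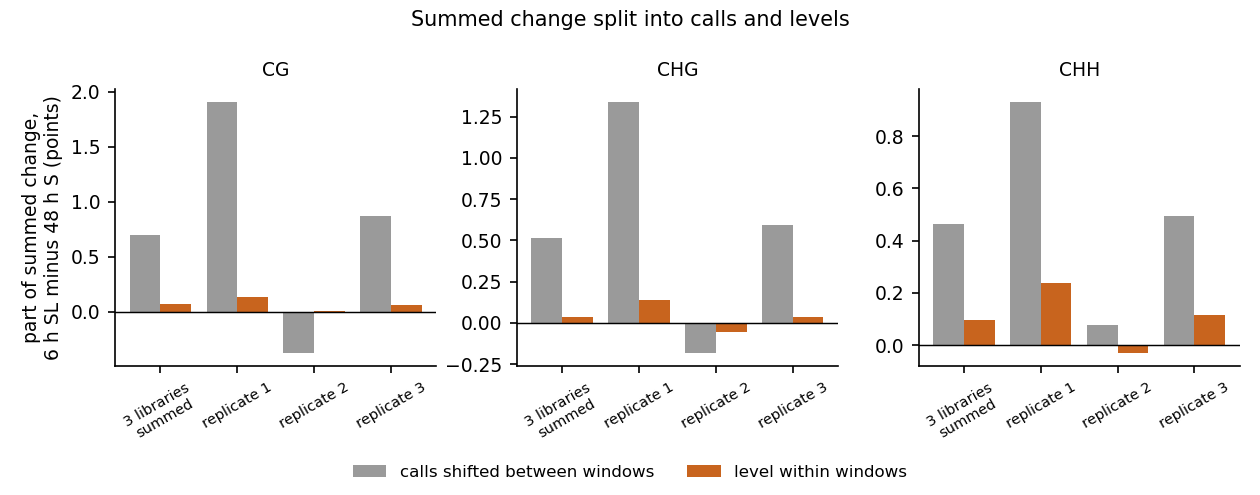
Difference of summed levels over the windows that passed the filter (percentage points, 6 h SL minus the 3 libraries of 48 h S summed), split into the part from calls shifted between windows (grey) and the part from the level within windows (orange), for the 3 libraries of 6 h SL summed and for each. The grey bar is the larger in every panel and column, with 0.699 against 0.0673 points for CG in the summed libraries.

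Setting 6 h SL against the 3 libraries of 0 h (dry seeds) and the 3 of 48 h S together gave more arrangements, 84 in all. With windows weighted equally the difference was 0.0927 points in CG (exact 2-sided permutation p = 0.0714, adjusted p = 0.196), where 17 of the 18 pairs of libraries had the 6 h SL library higher. The pooled time points were not alike in CG. The 0 h libraries, at 24.41, 24.39 and 24.48%, all lay below those of 48 h S, at 24.50, 24.54 and 24.51%. The pooled CG difference thus includes a step that came before the light. It was 0.0699 points in CHG (exact permutation p = 0.202) and 0.121 points in CHH (exact permutation p = 0.131, adjusted p = 0.196). With calls summed the adjusted p was 0.31 in each context by the same exact test. The neighbouring steps share libraries with this one and are given only side by side. With windows equal, 48 h S minus 0 h was 0.0893 points for CG, 0.0698 for CHG and 0.0300 for CHH, and 24 h SL minus 6 h SL was -0.374, -0.495 and -0.747 points. All 3 libraries of 24 h SL were below all 3 of 6 h SL in the 3 contexts in that weighting. With calls summed, 48 h S minus 0 h was -0.800 points for CG, -0.626 for CHG and -0.406 for CHH, the opposite sign to that with windows equal. In the same weighting, 24 h SL minus 6 h SL was -1.84 points for CG, -1.42 for CHG and -1.15 for CHH, and only in CHH did the libraries not overlap.

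Windows were then grouped by their level in the dry seed, a time point that does not enter the comparison. The most methylated windows were higher at 6 h SL, and the nearly unmethylated ones lower. In the 11169 windows with a CHH level of 40% or more at 0 h, the mean CHH level was 54.5, 52.9 and 53.6% at 6 h SL, against 51.8, 52.5 and 52.5% at 48 h S. All 6 h SL libraries were above all 48 h S libraries, with a difference of 1.43 points (53.7 ± 0.793% at 6 h SL and 52.3 ± 0.402% at 48 h S, SD, n = 3 each; exact permutation p = 0.1, the smallest possible, adjusted p = 0.3 over the 6 classes). The same windows averaged 53.1% at 0 h, and their level at 24 h SL was 8.52 points below that at 6 h SL. Of these windows 64.2% were higher at 6 h SL, and in 9.84% the 3 libraries of 6 h SL were all above the 3 of 48 h S, while in 2.91% they were all below. Over all CHH windows these shares were 3.83% and 7.92%.

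The difference in CHH became smaller with each lower class. It was 0.719 points for windows at 20 to 40% at 0 h, 0.383 points at 10 to 20% and 0.186 points at 5 to 10%, and in these 3 classes the libraries overlapped (exact permutation p = 0.3, 0.3 and 0.4). Relative to 48 h S the difference was 2.74%, 2.70%, 2.32% and 2.37% in the 4 classes in descending order of level. At 1 to 5% the difference was -0.0684 points. In the 291845 windows at 0 to 1% it was -0.0491 points, with 0.284, 0.272 and 0.273% at 6 h SL, against 0.308, 0.339 and 0.329% at 48 h S, so that all 6 h SL libraries were lower.

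The CG and CHG contexts showed the same order at the ends of their ranges. The 42544 windows with a CG level of 80% or more at 0 h stood at 91.97, 91.84 and 91.74% at 6 h SL, against 91.49, 91.53 and 91.54% at 48 h S, a difference of 0.334 points with no overlap (exact permutation p = 0.1, adjusted p = 0.2). Between 20 and 80% the CG difference was 0.0863 points, and between 5 and 20% it was -0.0165 points, both with overlap. CG windows at 0 to 5% at 0 h were lower in all 6 h SL libraries, with a difference of -0.0321 points, and so were CHG windows at 0 to 5%, with -0.0337 points. In CHG windows at 20 to 60% and at 60% or more the difference was 0.404 and 0.344 points, with overlapping libraries in both.

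The level of windows without methylation moved with the time points. In the 125263 windows below 2% in CG and CHG and below 1% in CHH at 0 h, the CHH level was 0.274, 0.261 and 0.261% at 6 h SL, against 0.296, 0.328 and 0.319% at 48 h S. It was lower in all 6 h SL libraries, with a difference of -0.0489 points (0.265 ± 0.00749% at 6 h SL and 0.314 ± 0.0166% at 48 h S, SD, n = 3 each; exact permutation p = 0.1). Reads from the unmethylated lambda phage DNA added to each library were not used here, so whether unconverted cytosines had a part in the lower level of unmethylated windows at 6 h SL was not tested. As an alternative, this CHH background of each library was subtracted from its level in every context. Since the background was lower at 6 h SL, the subtraction raises each difference by construction and is no separate support for a gain. The genome-wide differences kept their direction. With windows equal they were 0.0853 points in CG, without overlap (exact permutation p = 0.1), 0.0796 points in CHG and 0.153 points in CHH.

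**Figure D3:**
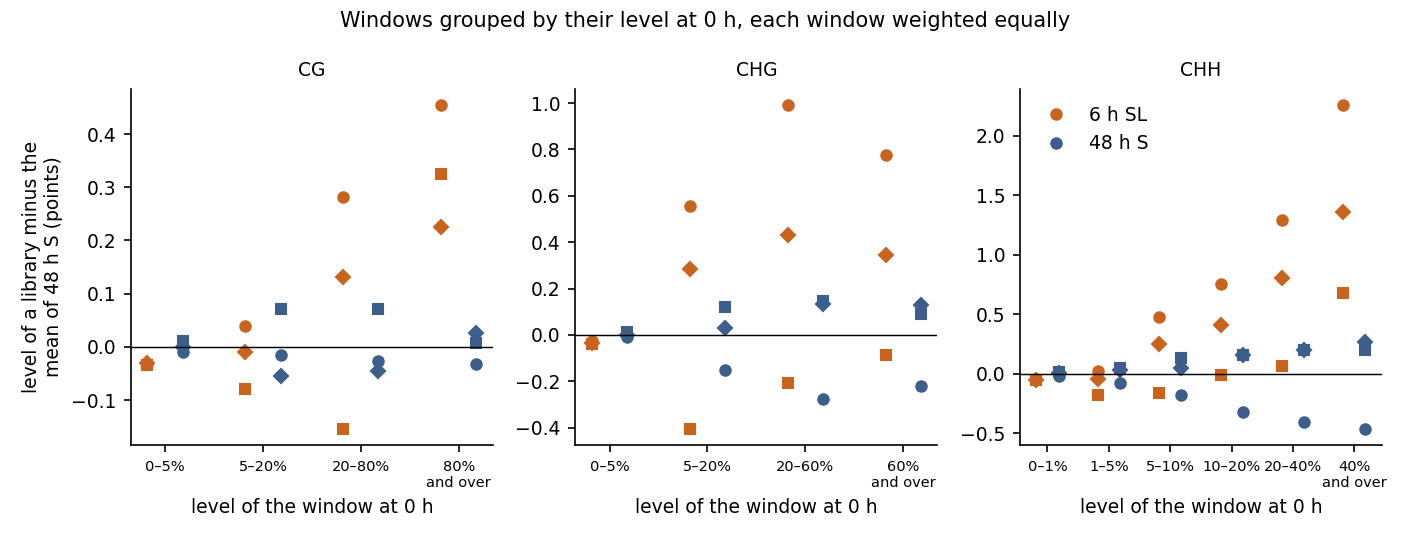
Mean level of each library minus the mean of 48 h S (percentage points) for 300-bp windows grouped by their level at 0 h, for 6 h SL (orange) and 48 h S (blue), with symbols for replicates 1 (circle), 2 (square) and 3 (diamond). The orange points rise to the right in CHH, up to an average of 1.43 points for windows at 40% or more, where they are clear of the blue points, and lie below the blue points in the lowest class of each context.

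The differentially methylated regions (DMRs) that the authors deposited gave a picture like that of the highly methylated windows. The lists were used as deposited, without the study's further filter on the size of the change. They were called over all 5 time points on these same libraries, so they are not independent evidence, and the calls of 48 h S and 6 h SL helped to choose them. Of the 22441 listed CHH DMRs, 22041 had 20 calls or more throughout, and in these the mean CHH level was 47.9, 46.2 and 47.0% at 6 h SL, against 45.0, 45.7 and 45.6% at 48 h S. All 6 h SL libraries were higher, by 1.58 points (47.0 ± 0.849% at 6 h SL and 45.4 ± 0.384% at 48 h S, SD, n = 3 each; exact permutation p = 0.1, adjusted p = 0.15), and the level at 24 h SL was 7.99 points below 6 h SL. The DMR level was higher at 6 h SL in 62.2% of the CHH DMRs. In 11.1% of them all 6 h SL libraries lay above all 48 h S libraries and in 4.2% all lay below. No CHH DMR passed an adjusted p of 0.05 in the quasi-binomial test described further on, 1444 were higher and 412 lower at an unadjusted p under 0.05 (6.55% and 1.87% of those tested). A single CG DMR passed, and was lower (0.00705% of the 14179 tested). It lies at chr2:3484606-3484732, in the stretch of chromosome 2 described further on, with 5.38, 12.8 and 21.7% at 6 h SL, against 33.5, 22.5 and 34.9% at 48 h S (quasi-binomial adjusted p = 0.036).

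CG DMRs stood at 70.5, 70.1 and 70.3% at 6 h SL, against 70.0, 70.1 and 70.0% at 48 h S, without overlap and with a difference of 0.275 points (exact permutation p = 0.1, adjusted p = 0.15). CHG DMRs differed by 0.513 points with overlap. Windows were also divided by whether they touched a CHH DMR, a split that was chosen on these libraries. The 30168 windows that touched a CHH DMR were higher by 1.12 points in all libraries (35.8 ± 0.763% at 6 h SL and 34.7 ± 0.357% at 48 h S), or 3.22% relative to 48 h S, whereas the 354628 windows that touched none differed by 0.0202 points. Among the windows that touched none, those at 5% or more at 0 h differed by 0.415 points (20.7 ± 0.418% at 6 h SL and 20.3 ± 0.299% at 48 h S), or 2.05% relative to 48 h S, with overlap.

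By sequence context, the mean was higher at 6 h SL for all 16 trinucleotides in both weightings, and the libraries of a single trinucleotide in a single weighting did not overlap. This was CGC with windows equal, at 41.52, 41.19 and 41.35% at 6 h SL, against 41.18, 41.13 and 41.15% at 48 h S, a difference of 0.201 points (exact permutation p = 0.1, adjusted p = 0.267 over the 4 CG trinucleotides). With calls summed, the CHH trinucleotides with a second cytosine had the largest relative difference. The CCC level was 4.54, 3.70 and 4.14% at 6 h SL, against 3.43, 3.75 and 3.65% at 48 h S, a relative difference of 14.3%, followed by CCT with 13.7% and CCA with 12.2%. The smallest were CAA with 8.81% and CTA with 9.11%, the sites with the highest CHH levels (9.47 ± 0.732% and 10.6 ± 0.819% at 6 h SL). The exact permutation p was 0.2 or 0.3 for each of the 9 CHH trinucleotides, so none of these differences exceeded the spread between libraries. With windows equal, CCC differed by 2.77%, CCA by 2.32% and CAA by 0.937%. These values rest on different sets of windows, 8957 for CCC, 127273 for CCA and 319473 for CAA. The CCC windows averaged 7.58% at 48 h S, against 3.61% for CCC with calls summed. Likewise CGC had 3373 windows, against 55752 for CGA. Whether the order with windows equal, or the lack of overlap in CGC, came from the sequence context or from the set of windows was not tested. The forward and the reverse strand differed alike, by 0.641 and 0.591 points in CHH with calls summed.

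All 5 chromosomes were higher at 6 h SL in each context with windows equal. In CG the difference ranged from 0.00869 points on chromosome 1 to 0.0738 points on chromosome 2, and in CHH from 0.0791 points on chromosome 1 to 0.149 points on chromosome 2. Only on chromosome 4 in CG did the libraries not overlap, at 26.72, 26.63 and 26.66% at 6 h SL, against 26.59, 26.61 and 26.60% at 48 h S (exact permutation p = 0.1, adjusted p = 0.25). With calls summed all 5 were also higher in each context, with overlap on every chromosome, and in CG the order was another, from 0.8154 points on chromosome 2 to 1.28 points on chromosome 3.

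Along the chromosomes, the CG difference with windows equal lay mainly in the gene-poor parts. These parts are also more methylated, and whether the difference went with the place or with the level of the windows was not tested. The 240 bins of 500 kb were divided by the share covered by protein-coding genes, with 41 gene-poor bins under 30% and 199 gene-rich bins. With windows equal, the CG level of the gene-poor bins was 75.03, 74.86 and 74.81% at 6 h SL, against 74.56, 74.59 and 74.62% at 48 h S. All 6 h SL libraries were higher, by 0.311 points (exact permutation p = 0.1, adjusted p = 0.2), while the gene-rich bins stood at 16.25, 16.16 and 16.21% at 6 h SL, against 16.19, 16.23 and 16.19% at 48 h S, a difference of 0.00429 points. The gene-poor level minus the gene-rich level was itself higher in all 6 h SL libraries, by 0.307 points (58.7 ± 0.0889 at 6 h SL and 58.4 ± 0.0386 points at 48 h S; exact permutation p = 0.1). Of the gene-poor bins 40 of 41 were higher at 6 h SL in CG, and in 27 the libraries did not overlap. Over all 240 bins, 18.3% were higher without overlap in CG and 6.25% lower.

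In CHH the gene-poor bins differed by 0.424 points (19.9, 19.1 and 19.6% at 6 h SL, against 18.8, 19.3 and 19.3% at 48 h S) and the gene-rich bins by 0.0461 points. All 41 gene-poor bins were higher at 6 h SL in CHH, but only 1 without overlap, and over all bins 3.75% were higher and 2.08% lower without overlap. The 41 bins were read in the same 6 libraries and are not separate observations. In CHG the gene-poor bins differed by 0.248 points and the gene-rich ones by 0.00154 points, and 1.67% of all bins were higher and 5.42% lower without overlap. The largest CG difference of a bin with windows equal was 0.610 points on chromosome 3 (15000001 to 15500000), and the largest in CHH was 0.625 points on chromosome 1 (14500001 to 15000000). By 24 h SL the level of all 41 bins had dropped below that of 6 h SL in every context.

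**Figure D4:**
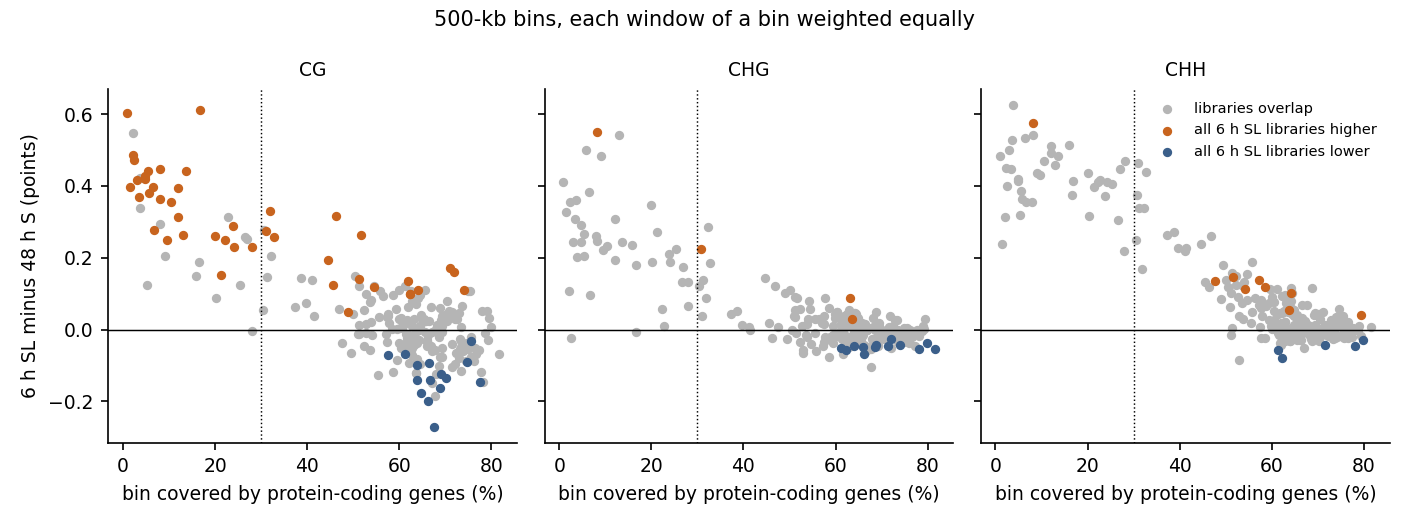
Difference of 6 h SL minus 48 h S (percentage points, windows equal) in 240 bins of 500 kb against the share of the bin covered by protein-coding genes (%), with bins coloured where all 6 h SL libraries were higher (orange) or lower (blue), and the dotted line at 30%. In CG 27 of the 41 bins left of the line are orange, and in CHH all 41 lie above 0 but only 1 is orange.

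By annotation, with regions weighted equally, the pseudogenes showed the CG difference most evenly. In this annotation they include many genes of transposable elements. The mean CG level of 4425 pseudogenes was 76.9, 76.7 and 76.6% at 6 h SL, against 76.4, 76.4 and 76.5% at 48 h S, 0.288 points higher and without overlap (exact permutation p = 0.1, adjusted p = 0.3). In each of 4 length classes the 6 h SL libraries were all higher, by 0.1801 points for pseudogenes under 1 kb, 0.276 points from 1 to 2 kb, 0.360 points from 2 to 4 kb and 0.370 points from 4 kb on. With calls summed the same 4 classes were higher by 0.406 to 1.17 points, with overlap in each. Bodies of protein-coding genes differed in CG by -0.0328 points and the 1 kb upstream of them by 0.140 points, both with overlap. In CHH the difference was 0.429 points in pseudogenes, 0.178 points upstream of genes and 0.0204 points in gene bodies, with overlap in each. No single pseudogene passed the adjusted p of 0.05 in any context. At an unadjusted p under 0.05, 155 were higher and 53 lower in CG (3.5% and 1.2%), and 144 higher and 47 lower in CHH (3.07% and 1%).

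With calls summed, the same bins gave the opposite order in CG, which turned round when a single stretch of chromosome 2 was left out. The gene-poor level minus the gene-rich level was lower in all 6 h SL libraries, with a difference of -0.620 points (59.1 ± 0.351 at 6 h SL and 59.8 ± 0.0462 points at 48 h S). The bin at 3000001 to 3500000 on chromosome 2 stood at 33.5% CG at 6 h SL and 47.1% at 48 h S, a difference of -13.6 points, and the next lowest bin, on chromosome 3 (14000001 to 14500000), differed by -3.21 points. The stretch lies at chr2:3225001-3525000, the longest run of 25-kb steps of the chromosome with at least 10% of their 31-base words in the mitochondrial genome, a rule set after its values were seen. Without it, the gene-poor minus gene-rich level was higher in all 6 h SL libraries, by 0.352 points in CG (61.1 ± 0.294 at 6 h SL and 60.7 ± 0.0742 points at 48 h S; exact permutation p = 0.1). For CHG the same value was 0.484 points without the stretch and -0.0894 points with it, and for CHH 0.405 and 0.240 points, all with overlap.

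The short arm of chromosome 2 is known to hold a large insertion of mitochondrial DNA near the centromere. Of the 31-base words of the whole stretch, 87.8% also occur in the RefSeq mitochondrial genome, against 0.0176% in the 250 kb before it and 0.127% in the 250 kb after it. Calls per window in the stretch, relative to the median window of the library, were 1.66, 1.498 and 1.16 at 6 h SL, against 0.744, 0.815 and 0.674 at 48 h S, a ratio of 1.93. The stretch held 0.422, 0.386 and 0.298% of all calls at 6 h SL, against 0.195, 0.212 and 0.177% at 48 h S. Its CG level was lower in all 6 h SL libraries (11.9 ± 1.27% at 6 h SL and 16.9 ± 0.954% at 48 h S, SD, n = 3 each), as were its CHG level (8.03 ± 0.795% at 6 h SL and 11.4 ± 0.689% at 48 h S) and its CHH level (2.75 ± 0.321% at 6 h SL and 3.78 ± 0.221% at 48 h S). Whether reads of the mitochondrial genome itself had a part in these levels was not tested. In the 250 kb before the stretch the CG difference was 0.466 points, with overlap, and the ratio of call densities 1.05. A further 25 kb from 3600001, with none of its words in the mitochondrial genome, also had more calls at 6 h SL (3.53 times the median window at 6 h SL and 2.04 times at 48 h S) and a CG difference of -1.45 points without overlap, as did the next 25 kb from 3625001 (1.52 times at 6 h SL and 1.02 times at 48 h S, with a CG difference of -0.928 points without overlap). Over the 250 kb after the stretch, which holds both, the ratio of call densities was 1.24 and the CG difference -0.654 points, without overlap.

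**Figure D5:**
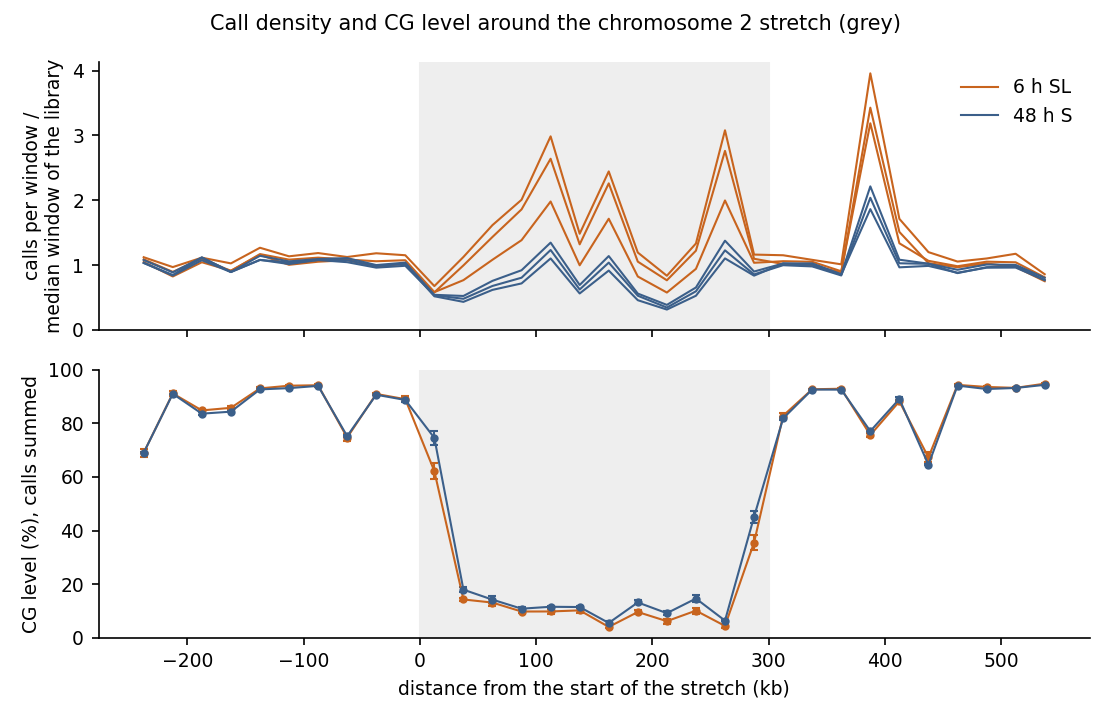
Top, calls per 300-bp window relative to the median window of the library, and bottom, CG level (%, calls summed, mean ± SD of 3 libraries), in 25-kb steps by distance (kb) from the start of the chromosome 2 stretch (grey), for 6 h SL (orange) and 48 h S (blue). The density of every 6 h SL library is above every 48 h S library throughout the grey area, with 1.93 times the density over the whole stretch, and the CG level drops in the area and is 11.9% at 6 h SL and 16.9% at 48 h S.

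Single windows were tested with a quasi-binomial model of the methylated and unmethylated calls over all 15 libraries, and a window was called at an adjusted p under 0.05 and a difference of at least 20 points. None was called in CG, CHG or CHH (0% of those tested), and limma on the log2 odds also called 0 in each context. Windows with a difference of 20 points or more, whatever their p, numbered 6 higher and 6 lower in CG, 6 and 1 in CHG, and 4 and 0 in CHH. The minimum difference thus left few windows that either test could call. At an unadjusted p under 0.05, 5729 CG windows were higher at 6 h SL and 3142 lower (2.18% and 1.2% of those tested), 6571 CHG windows were higher and 2975 lower (2.2% and 0.996%), and 8668 CHH windows were higher and 17055 lower (2.25% and 4.43%). Of the CHH windows lower at that p, 14976 belonged to those at 0 to 1% at 0 h. This was 5.13% of that class, near the 4.43% over all CHH windows. In the class at 1 to 5% at 0 h, 10.2% were lower and 5.98% higher. Among CHH windows at 40% or more at 0 h, 792 were higher and 139 lower (7.09% and 1.24%).

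Without the minimum of 20 points, 17 CHH windows passed the adjusted p, 4 higher (0.00104% of those tested) and 13 lower (0.00338%), and no CG or CHG window did, although limma on the log2 odds passed 11 CG windows, all higher. A form of limma with a scaled addition to the calls, added after the data were seen, passed 369 CG windows (42 higher and 327 lower) and 618 CHG windows (65 higher and 553 lower), so the count and the direction rested on the test. Each of the CHH windows named here changed by less than 10 points at a low level. The count of CHH windows rested on the libraries and on the handling of the dispersion: it was 7, 3 and 11 without 6 h SL replicate 1, 2 or 3, 9 and 11 without 48 h S replicate 2 or 3, 0 with 1 dispersion prior for all windows and 0 with limma on the log2 odds. The windows named here show where the libraries differed most.

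Among the higher windows, that at chr5:18501301-18501600 lies in AT5G45620, which encodes a protein with a proteasome component (PCI) domain. Its CHH level was 9.76, 10.2 and 8.87% at 6 h SL, against 0.813, 0.521 and 1.09% at 48 h S (quasi-binomial adjusted p = 0.0142). The dry seed libraries lay at 0.806, 2.47 and 9.33%, so they spanned levels near those of both time points. An intergenic window at chr2:8371201-8371500, 93 bp from AT2G19320 (an uncharacterized protein), had 7.77, 8.79 and 5.66% at 6 h SL, against 2.25, 0.465 and 2.43% at 48 h S (adjusted p = 0.000986). A window at chr2:18016501-18016800, 316 bp from the non-coding RNA gene AT2G43375, had 5.16, 6.92 and 4.88% at 6 h SL, against 1.51, 2.74 and 1.83% at 48 h S (adjusted p = 0.0147). The fourth, in AT5G60430 (annotated as an antiporter or drug transporter), rested on a single library, with 1.23, 8.29 and 0.909% at 6 h SL, against 0.569, 0.408 and 0% at 48 h S (adjusted p = 0.0381).

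The largest of the lower windows lay in AT1G49260, annotated as a mechanosensitive ion channel-like protein, at chr1:18225901-18226200. Its CHH level was 0.375, 2.12 and 1.25% at 6 h SL, against 11.7, 10.4 and 10.7% at 48 h S (adjusted p = 0.000986), and 0.591, 11.5 and 2.99% in the dry seed. In AT1G77100, a gene of the peroxidase superfamily, the window at chr1:28965901-28966200 had 0.337, 0.928 and 0.251% at 6 h SL, against 11.5, 5.32 and 4.43% at 48 h S (adjusted p = 0.0105). KCR2 (AT1G24470), a beta-ketoacyl reductase gene, had 0, 0.326 and 0% at 6 h SL, against 8.12, 5.49 and 3.76% at 48 h S in the window at chr1:8673901-8674200 (adjusted p = 0.00314). The window at chr2:7185001-7185300, in AT2G16580 of the SAUR-like auxin-responsive family and the overlapping AT2G16575, had 0, 0 and 0.489% at 6 h SL, against 4.24, 9.26 and 2.91% at 48 h S (adjusted p = 0.0105). In AT4G15970, a gene of the nucleotide-diphospho-sugar transferase family, the window at chr4:9049201-9049500 had 0% in all 6 h SL libraries, against 5.70, 2.34 and 6.16% at 48 h S (adjusted p = 0.0142). A count of 0 in this window allows a level of up to 1.22, 1.00 and 1.20% in the 3 libraries, for counting error only. This and the following limits take each call as independent. Calls of the same read are not, so the limits can be too low. For the libraries at 0 in KCR2 the limit is 1.57 and 0.789%, in AT2G16580 it is 1.13 and 0.668%, and in AT5G60430 it is 0.369%. The dry seed libraries of the 5 windows also spread, and in AT4G15970 they were 0.809, 5.98 and 0.858%.

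The sequences of 4 of these windows, a pair higher and a pair lower at 6 h SL, are printed to show where their methylated CHH sites lie. In each direction the first pair of named windows with no bases in untranslated regions and with sites that meet the rule below was taken. The sequences are from the RefSeq assembly TAIR10.1, forward strand, 5′ to 3′. Capitals mark the CHH cytosines (a G stands for a cytosine of the reverse strand) at 10% or more with at least 10 calls in the summed libraries of the time point with the higher level.
chr2:8371201-8371500 (near AT2G19320): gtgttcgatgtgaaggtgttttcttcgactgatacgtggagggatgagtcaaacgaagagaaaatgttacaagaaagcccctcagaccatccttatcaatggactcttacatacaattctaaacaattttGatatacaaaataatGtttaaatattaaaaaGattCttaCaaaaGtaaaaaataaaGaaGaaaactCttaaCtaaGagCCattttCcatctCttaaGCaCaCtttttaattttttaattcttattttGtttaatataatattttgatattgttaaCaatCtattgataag
chr2:18016501-18016800 (near AT2G43375): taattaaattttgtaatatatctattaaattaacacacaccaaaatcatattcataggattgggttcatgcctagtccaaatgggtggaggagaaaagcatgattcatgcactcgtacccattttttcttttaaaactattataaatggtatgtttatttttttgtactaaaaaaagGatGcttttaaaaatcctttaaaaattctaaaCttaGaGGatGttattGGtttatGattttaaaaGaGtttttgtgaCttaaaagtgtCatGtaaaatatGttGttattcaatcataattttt
chr1:28965901-28966200 (AT1G77100): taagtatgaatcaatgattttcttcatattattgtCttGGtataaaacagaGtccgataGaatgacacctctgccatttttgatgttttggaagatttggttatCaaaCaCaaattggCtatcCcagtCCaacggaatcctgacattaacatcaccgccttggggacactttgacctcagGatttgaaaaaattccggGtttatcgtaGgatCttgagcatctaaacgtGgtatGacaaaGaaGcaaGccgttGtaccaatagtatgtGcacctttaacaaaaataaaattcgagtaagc
chr2:7185001-7185300 (AT2G16580): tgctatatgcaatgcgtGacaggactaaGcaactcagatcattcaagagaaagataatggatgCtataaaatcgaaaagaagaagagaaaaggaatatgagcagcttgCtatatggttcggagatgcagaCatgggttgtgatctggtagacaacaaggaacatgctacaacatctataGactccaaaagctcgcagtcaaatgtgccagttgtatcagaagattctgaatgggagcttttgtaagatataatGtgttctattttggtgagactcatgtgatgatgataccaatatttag
In the window near AT2G19320, 22 of 70 CHH cytosines were marked, 13 on the forward and 9 on the reverse strand. They lay within 160 bp at its end, and their summed level was 14.4% at 6 h SL and 2.76% at 48 h S. Near AT2G43375 the 17 marked cytosines of 74 lay within 104 bp, 14 of them on the reverse strand, with 14.4% at 6 h SL and 4.22% at 48 h S. In AT1G77100, 23 of 81 were marked over 234 bp, mostly inside coding sequence (272 of the 300 bases), with 0.360% at 6 h SL and 12.2% at 48 h S. In AT2G16580 the 7 marked cytosines of 88 were scattered over 237 bp. At the higher time point the marked cytosines held 71.8% of the methylated CHH calls near AT2G19320 and 71.8% near AT2G43375. They held 46.4% in AT1G77100 and 21.7% in AT2G16580. In the window in AT5G45620, which is not printed, 0 of 63 CHH cytosines met the rule. Since the capitals were chosen by the higher time point, the difference between the time points at these sites is a description.

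In CG and CHG the windows with the smallest p did not pass, with an adjusted p of 0.854 in CG and of 0.732 or 0.79 in CHG. The CG window at chr2:8101-8400, over the RNA gene AT2G03875, had 94.3, 89.0 and 89.0% at 6 h SL, against 71.6, 74.5 and 80.4% at 48 h S. In SPL1 (AT2G47070), a transcription factor gene of the SQUAMOSA promoter-binding family, the CG window at chr2:19338601-19338900 had 26.1, 19.7 and 14.0% at 6 h SL, against 2.17, 6.49 and 4.07% at 48 h S. In NAS3 (AT1G09240), which encodes a nicotianamine synthase, the CHG window at chr1:2986201-2986500 had 78.2, 66.4 and 69.9% at 6 h SL, against 57.0, 47.7 and 54.1% at 48 h S. The rule that named these windows asked for libraries without overlap, which held for 2.81% of all CG windows and 1.7% of all CHG windows in this direction. The lower windows with the smallest p included 2 of 3 in CG and 1 of 3 in CHG that lie in the chromosome 2 stretch. The third in CG, in AT1G72080 (an uncharacterized protein), had 10.2, 28.3 and 36.8% at 6 h SL, against 46.6, 53.6 and 49.7% at 48 h S.

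Gene bodies and the 1 kb upstream of genes were tested with a minimum of 10 points, and 0 upstream regions and 0 gene bodies were called in any context. At an unadjusted p under 0.05, between 318 and 658 gene bodies were higher and between 780 and 1106 lower in the 3 contexts (1.17% to 2.45% and 2.87% to 4.12% of those tested). Of the upstream regions, 3.13% were higher and 3.63% lower at that p in CG, 3.3% and 4.04% in CHG, and 2% and 2.93% in CHH. Without the minimum, 1 upstream region (CHG, 0.00369%) and 8 gene bodies passed the adjusted p. In CHG 2 bodies were higher (0.00745%) and 4 lower (0.0149%), and in CHH 1 was higher and 1 lower (0.00368% each). Of the 4 lower CHG bodies, 3 lie in the chromosome 2 stretch (AT2G07715, AT2G07827 and AT2G07662), as does the upstream region of AT2G07787. AT2G07715, annotated as a nucleic acid-binding protein, had 2.93, 2.98 and 4.06% CHG at 6 h SL, against 6.42, 6.19 and 8.26% at 48 h S (adjusted p = 1.75e-06). The other, AT1G17780 (an uncharacterized protein), had 1.096, 1.40 and 0.741% at 6 h SL, against 4.53, 5.08 and 3.10% at 48 h S (adjusted p = 0.0035).

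The higher bodies changed by small amounts. AT4G04180, annotated as a P-loop nucleoside triphosphate hydrolase, had 6.97, 3.63 and 5.84% CHG at 6 h SL, against 2.00, 3.58 and 3.503% at 48 h S (adjusted p = 0.0257). AT5G19540, annotated as a thermosome subunit gamma, had 5.50, 2.84 and 4.22% CHG at 6 h SL, against 1.73, 2.41 and 2.40% at 48 h S (adjusted p = 0.0472). In CHH, AT4G28080, which encodes a protein with tetratricopeptide repeats, had 1.93, 1.73 and 1.503% at 6 h SL, against 0.938, 0.997 and 0.890% at 48 h S (adjusted p = 0.0481), and the body of AT1G77100 had 0.956, 0.955 and 1.84% at 6 h SL, against 6.51, 3.82 and 3.96% at 48 h S (adjusted p = 0.0207).

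In the other tests of gene regions, and among the higher upstream regions in CHG, the smallest p did not pass. Upstream of GAUT9, a galacturonosyltransferase gene, the CG level was 0.510, 3.27 and 1.84% at 6 h SL, against 5.07, 6.52 and 7.26% at 48 h S (adjusted p = 0.534). Upstream of emb2171, which encodes a ribosomal protein of the L14p/L23e family, it was 68.2, 62.5 and 68.2% at 6 h SL, against 52.0, 47.2 and 56.5% at 48 h S (adjusted p = 0.734). In the CG of gene bodies, AT5G53110 (a RING/U-box protein) had 26.3, 24.96 and 26.8% at 6 h SL, against 17.7, 18.4 and 19.1% at 48 h S (adjusted p = 0.536). These regions were named for a small p and for libraries without overlap. Upstream of SPDS1, a spermidine synthase gene, the CHG level was 4.25, 2.79 and 0.99% at 6 h SL, against 0.69, 0.24 and 0.40% at 48 h S (adjusted p = 0.141). Upstream of AT3G09130 (an uncharacterized protein) the CHH level was 23.4, 24.1 and 28.6% at 6 h SL, against 14.8, 15.1 and 19.1% at 48 h S (adjusted p = 0.664). The CHH level upstream of KCR2, whose window was named above, was 0.0800, 0.0555 and 0.480% at 6 h SL, against 1.31, 1.68 and 1.20% at 48 h S (adjusted p = 0.664).

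Genes of light perception and of germination were looked at as a list of 49, with 7 photoreceptor genes, 17 of light signalling, 7 induced by light and 18 of germination and hormones. All 49 were tested upstream and in the body in each context, and 0 passed the adjusted p in any of the 6 tests. The counts at an unadjusted p under 0.05 were 2 higher and 1 lower for upstream CHG (3.3% and 4.04% of all genes tested), 2 lower for upstream CHH (2.93%), 1 higher and 1 lower for body CG (2.45% and 3.07%) and 1 lower for body CHG (4.12%). The median difference of the list ranged from -0.0790 points (body CG) to 0.0810 points (upstream CHG), against -0.0352 and -0.0225 points for all genes in the same tests. Most of the list carried little methylation. At 48 h S only 16 genes had 5% CG or more in the body and 6 had 5% CHH or more upstream.

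The following listed genes were chosen after their values were seen. PIF3, which encodes a phytochrome-interacting transcription factor that restrains responses to light, had the largest CHH difference upstream. Its 1 kb upstream had 12.2, 12.1 and 12.7% CHH at 6 h SL, against 8.79, 8.84 and 10.5% at 48 h S (unadjusted p = 0.0764, adjusted p = 0.997). PHYB, which encodes the main phytochrome of red light responses, had 34.6, 40.2 and 40.8% CG in the body at 6 h SL, against 34.9, 37.3 and 35.2% at 48 h S (adjusted p = 0.885). FAR1 and FHY3, a pair of related transcription factor genes of phytochrome A signalling, were both lower on average in body CG. FAR1 stood at 47.5, 47.2 and 44.9% at 6 h SL, against 48.3, 50.9 and 50.3% at 48 h S (adjusted p = 0.905), and FHY3 at 42.3, 43.1 and 45.6% at 6 h SL, against 46.2, 48.6 and 45.9% at 48 h S (adjusted p = 0.911).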

How the data were processed

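MethylC-seq libraries of germinating seeds were read from the deposited table of methylated and unmethylated calls per cytosine. Per the labels and the study's methods, reads were single-end, were trimmed by Trim Galore 0.4.2 and were aligned to TAIR10 by Bismark 0.16.3, after which the authors removed duplicates and deposited counts of calls, which were used as they stand, with no normalization. The deposited DMR lists were made by the authors with HOME over all time points, and only their coordinates were used. The lists were taken whole: the study's further filter on the size of the change over the time course was not applied here, so counts of DMRs here are not those of its filtered set. All 42859750 cytosines of the table match the TAIR10.1 assembly, whose annotation gave the genes, pseudogenes and sequences.

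Levels are methylated over all calls, either with calls summed or as the mean of 300-bp windows with at least 3 covered cytosines and 20 calls in all 15 libraries. Groups were compared with exact 2-sided permutation tests over libraries (20 arrangements) with Benjamini-Hochberg adjustment within a family. Windows, gene bodies, the 1 kb upstream of genes, pseudogenes and DMRs were tested with a quasi-binomial F test over all 15 libraries. Its dispersions were moderated with limma 3.58.1 (R 4.3.3), with separate priors for regions at 5 to 95% and for the rest. This form was chosen after a single prior had been tried on the data, and the single prior is among the alternatives. A call needed an adjusted p under 0.05 and 20 points, or 10 points for gene regions. The tests were tested on simulated data. Computations used Python 3.11.15, numpy 2.4.6 and scipy 1.17.1.

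The named regions are, per context and direction, up to 5 past the adjusted p with the largest change and no overlap of libraries, or up to 3 with the smallest p where none passed, of which the text gives some. The regions, classes and gene lists were chosen with earlier results of these data known. Alternatives were other window sizes and minimum calls, each library left out, the replicate numbers as a block, other weights, background subtraction, limma on the log2 odds and the 6 libraries alone.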

Additional observations from a re-analysis of the deposited data

How the results depend on the processing

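The level differences kept their direction in 92 of 93 alternative values. The exception was CHG with windows equal, which was -0.0128 points without 6 h SL replicate 1. With 3 against 3 libraries the smallest exact permutation p is 0.1, so no alternative could take one past a threshold of 0.05. With each library left out in turn, the difference ranged over 0.423 to 1.68 points (CG), 0.340 to 1.29 (CHG) and 0.331 to 0.898 (CHH) with calls summed, over 0.0204 to 0.0714, -0.0128 to 0.0839 and 0.0459 to 0.170 points with windows equal, and over 1.15 to 2.00 points in the CHH DMRs. Other alternatives that moved a difference by over 1.5 times, all in the same direction, were cytosines with 4 or more calls in each library (summed 0.535 in CG, 0.305 in CHG and 0.313 in CHH; equal 0.0906 in CG), shared weights (0.0606, 0.0374 and 0.107, against the summed differences), windows of 1000 bp (equal 0.123, 0.126 and 0.185), windows of 100 bp (equal 0.0848 in CG and 0.0649 in CHH), at least 40 calls (equal 0.0734 in CG), the window filter on the 6 libraries (equal 0.0529 in CHG) and background subtraction (equal 0.0853 in CG and 0.0796 in CHG). Background subtraction raises a difference by construction, since the background was lower at 6 h SL. The counts of called windows and gene regions stayed at 0 in every alternative run. In the main setting few 300-bp windows reached 20 points at all. The 17 CHH windows past the adjusted p without a minimum difference did not hold: the count was 3 to 17 with a library left out, 83 with the 6 libraries alone in the fit, 0 with windows of 100 bp, 7 with windows of 1000 bp, 0 with limma on the log2 odds and, in alternatives added after the data were seen, 0 with limma and a scaled addition and 0 with 1 dispersion prior. For CG, main count 0, it was 11 with limma, 369 with limma and a scaled addition (42 higher, 327 lower) and 1 with windows of 1000 bp. For CHG, also 0, it was 3 with the 6 libraries alone, 618 with limma and a scaled addition (65 higher, 553 lower) and 4 with windows of 1000 bp. The cause of these shifts was not tested.

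Over windows, the deviations of same-numbered libraries correlated with r from -0.00523 to 0.00425. Those of differently numbered libraries correlated with r from -0.00714 to 0.00701. Counting error within single windows weakens such r, so these values cannot decide whether the numbers pair the libraries. With the replicate numbers as a block, 7 CHH windows passed (1 higher, 6 lower) and the CG DMR that had passed did not. A sign flip of 3 pairs cannot give a p under 0.25, so the block says nothing of the level differences.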
